A study of Sus scrofa with 6 samples.

Results

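The genes of AMP-activated protein kinase (AMPK) were examined in the muscle expression arrays, with the regulatory subunit gene PRKAG3 among them. Probes other than controls were taken where the file named the gene PRKAA1, PRKAA2, PRKAB1, PRKAB2, PRKAG1, PRKAG2 or PRKAG3, gave that symbol in round brackets in its description, or described the protein as AMP-activated protein kinase with its full name. Of these 7 genes, 6 had a probe, and these 6 genes were covered by 7 of the 43603 probes of the array. PRKAB2 had no probe found in this way, and its values were not analysed here. The study asked which transcripts differ between oxidative and glycolytic skeletal muscle. Gene expression was measured with single-colour Agilent arrays in longissimus dorsi muscle (LDM, the glycolytic muscle along the back) and psoas major muscle (PMM, the oxidative muscle of the loin), with 3 arrays for each muscle. All samples came from 3 female Landrace pigs aged 210 days with no recent common ancestry, which were kept on the same diet and were taken off feed, but not water, before slaughter. No treatment or genotype differed between the groups. The paper took both muscles from all 3 pigs for methylation and used matching samples for the arrays. The labels did not say whether a replicate number stood for a pig. The main tests took the arrays as unpaired, so their p-values measured the spread between these samples. Some results are also given with the arrays paired by replicate number.

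AMPK is a kinase that senses the energy state of the cell through the ratio of AMP and ADP to ATP. Each complex holds a catalytic alpha subunit (PRKAA1 or PRKAA2), a scaffold beta subunit (PRKAB1 or PRKAB2) that binds glycogen, and a gamma subunit (PRKAG1, PRKAG2 or PRKAG3) that binds the nucleotides. In skeletal muscle alpha-2 is the main catalytic form, and gamma-3 is largely restricted to this tissue. PRKAG3 is well known in pigs because alleles of this gene change the glycogen content of muscle and the quality of meat.

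The opening 30 bases of each 60-base probe are shown because the probe decides which subunit, and which stretch of its transcript, each value reports. They are written from the 5′ end in lower case, with no base singled out. No other probe of the array shared a run of 20 bases with any of the 7 probes, and their GC content over all 60 bases ranged from 35% to 45%.
PRKAA1 A_72_P029186: cttaactccaagacctggaagtcacacaat
PRKAA2 A_72_P035741: aatccagtttgcttcctaaatttcggcagg
PRKAB1 A_72_P237592: ccccttttgttactgttttcaaaacactga
PRKAG1 A_72_P233587: agctgaggttattgcttttcgtggcaaacc
PRKAG1 A_72_P223782: attactttgaaggtgtcctcaagtgctacc
PRKAG2 A_72_P360158: tggtttgtatattcatataatcctcggccg
PRKAG3 A_72_P223232: agaatgtccctggaaggaagccagttaata

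The probes of PRKAA1, PRKAA2, PRKAG1 and PRKAG3 carried the gene symbol in the files. The PRKAB1 and PRKAG2 probes were found through the protein name, and their descriptions compared a pig transcript cluster with the bovine beta-1 and with a part of the human gamma-2 protein. The identity of these probes is therefore less certain than that of the others, above all for PRKAG2. The pair of PRKAG1 probes lay at bases 1594 (A_72_P233587) and 853 (A_72_P223782) of their target as the files gave it, and the chromosomal position of every probe was listed there as unmapped. A further probe, A_72_P304899, named PRKAA1 in its description without brackets and was outside the rule. The scanner software marked it as above background on 2 of 3 LDM and 0 of 3 PMM arrays, with intensities of 5.37 to 46.1 units, and was not tested.

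The arrays were of similar brightness, with 75th percentiles of 595 to 883 intensity units and with 58.5% to 72.4% of spots well above the background, and no spot was saturated. Their small number limits the precision. Of 15 muscle fibre markers 14 had a named probe. All 14 were detected (marked as well above background by the scanner software) on every array, although the label on RNA extraction speaks of adipose tissue. All 6 slow fibre markers with a probe had a difference above 0 (PMM minus LDM), including TNNI1 (slow troponin I) at 1.03 on the log2 scale, and the oxygen carrier MB and the fatty acid carrier FABP3 had differences of 1.47 and 2.16. None of these 3 genes was called with limma, with an adjusted p of 0.99998 for each. Of the 8 fast fibre markers with a probe, 4 had a difference above 0 and 4 below it, with a median of 0.039. Over 25835 tested probes limma called 8 (0.0310%) at an adjusted p under 0.05, and 679 probes (2.63%) had an unadjusted p under 0.05.

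With the arrays of each muscle taken as unpaired, none of the AMPK subunit genes differed between LDM and PMM beyond the spread between the arrays. Each of the 7 probes was detected above background on every array, 0 of 7 were called with limma against 0.0310% of all tested probes, and 0 of 7 had an unadjusted p under 0.05. The adjusted p was 0.99998 for each. This fit left out the replicate number, and 2.63% of tested probes had an unadjusted p under 0.05. The share was 11.1% with the replicate number as a block. With that block PRKAA2 had an interval from -1.07 to -0.090 and a limma p of 0.0279 before adjustment. Its adjusted p was then 0.380, and again 0 of 7 probes were called. None of the 7 had LDM and PMM values that did not overlap, beside 5.94% of the tested probes with 6 values. At shares as small as these, 0 of 7 called or not overlapping does not set the subunit probes apart from the array. The differences ran from -0.58 for PRKAA2 to 0.40 for the brighter PRKAG1 probe, with the median of all tested probes at -0.041. In whole muscle, fewer fibres of a type and less RNA per fibre cannot be told apart. All values that follow are log2 of the intensity minus log2 of the 75th percentile of the same array. The brightness of a probe also depends on its sequence, so the values of a gene were compared between arrays and no order of abundance was drawn between genes.

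**Figure D1:**
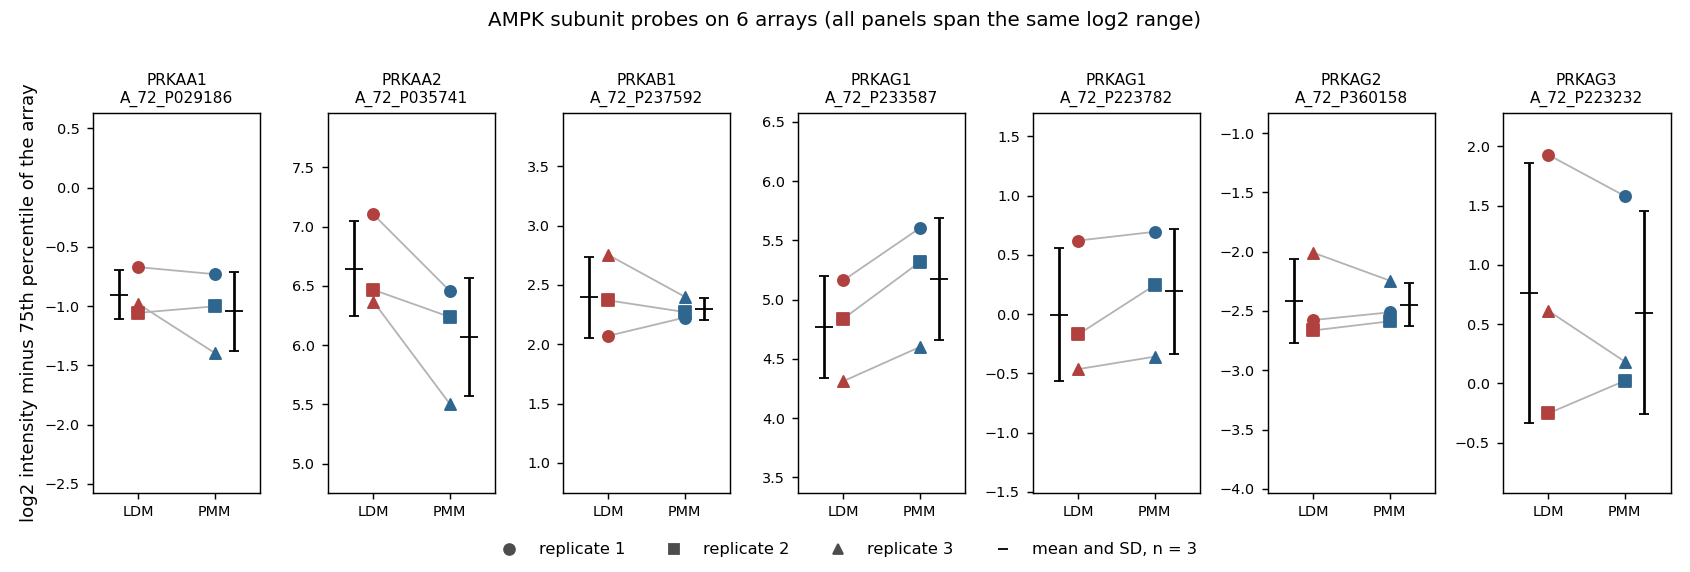
The log2 intensity of the 7 AMPK subunit probes, relative to the 75th percentile of each array, is plotted for LDM (red) and PMM (blue), with lines joining arrays of the same replicate number and black bars for the mean and SD of 3 arrays. The LDM and PMM points overlap in every panel, and the PRKAG3 panel shows the widest spread within a muscle, with replicate 1 at 1.93 in LDM and 1.58 in PMM.

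Of the catalytic subunits, PRKAA2 encodes alpha-2, the main form of muscle. Its LDM values were 7.10, 6.47 and 6.37 in replicates 1, 2 and 3, and its PMM values were 6.46, 6.24 and 5.51. The PMM values were the lower ones in each of the 3 pairs of the same replicate number, by 0.64, 0.23 and 0.86 in size, but PMM replicate 1 lay above LDM replicate 3, so the muscles overlapped. Across all tested probes, 19.4% were likewise lower in PMM in all 3 pairs. LDM averaged 6.65 ± 0.40 (SD, n = 3), whereas PMM averaged 6.07 ± 0.50 (SD, n = 3). This difference of -0.58 (SE 0.37, 95% interval -1.43 to 0.27) had a limma adjusted p of 0.99998, and its exact two-sided permutation p was 0.2. On the linear scale the LDM signal was 1.49 times that of PMM, with an interval from 0.83 to 2.69 times. With the replicate number as a block the log2 interval was narrower, from -1.07 to -0.090. The limma p of PRKAA2 was then 0.0279 before adjustment and 0.380 after it.

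PRKAA1 encodes alpha-1, the catalytic form found in most tissues. Its values were -0.67, -1.06 and -0.98 in LDM and -0.73, -1.001 and -1.39 in PMM. The lowest array was PMM replicate 3, and the other PMM arrays lay within the LDM range. The difference was -0.14 (SE 0.31, 95% interval -0.85 to 0.58), with a limma adjusted p of 0.99998 and an exact permutation p of 0.5. Without PMM replicate 3 the difference was 0.037.

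Of the scaffold subunits only PRKAB1, which encodes beta-1, had a probe found by the rule. Its values were 2.07, 2.37 and 2.75 in LDM and 2.23, 2.27 and 2.40 in PMM. All PMM values fell inside the LDM range, and the SD was 0.34 in LDM against 0.091 in PMM (n = 3 each). The difference was -0.10 (SE 0.31, 95% interval -0.80 to 0.60), with an exact permutation p of 0.8, and without LDM replicate 3 it was 0.079.

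PRKAG3 encodes gamma-3, the gamma form of fast skeletal muscle. Its values were 1.93, -0.25 and 0.61 in replicates 1, 2 and 3 of LDM, and 1.58, 0.022 and 0.18 in PMM. In both muscles replicate 1 was the highest array and replicate 2 the lowest, and all PMM values lay within the LDM range. LDM averaged 0.76 ± 1.098 (SD, n = 3), whereas PMM averaged 0.60 ± 0.86 (SD, n = 3). The difference of -0.17 (SE 0.62) had a limma adjusted p of 0.99998 and an exact permutation p of 0.8. Its 95% interval, from -1.57 to 1.24, corresponds to an LDM signal between 0.42 and 2.97 times that of PMM. With the replicate number as a block the interval was narrower, from -0.69 to 0.35 on the log2 scale. The direction depended on single arrays, being 0.42 when LDM replicate 1 was left out, 0.12 when PMM replicate 2 was and 0.039 when PMM replicate 3 was. In the 3 pairs of replicate numbers the PMM value minus the LDM value was -0.35, 0.27 and -0.43. The arrays of replicate 2 shared a slide, as did those of replicate 3, and each replicate number was scanned on a day of its own.

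PRKAG1 encodes gamma-1, the gamma form found in most tissues, and was the only member with more than 1 probe. At the brighter probe, A_72_P233587, the values were 5.16, 4.84 and 4.31 in LDM and 5.60, 5.32 and 4.60 in PMM. At A_72_P223782 they were 0.62, -0.17 and -0.46 in LDM and 0.69, 0.24 and -0.36 in PMM. Both probes were higher in PMM in all 3 pairs of replicate numbers, as were 16.4% of all tested probes, and at both probes the muscles overlapped. The difference was 0.40 (SE 0.38, 95% interval -0.47 to 1.27) at A_72_P233587 and 0.20 (SE 0.41, 95% interval -0.74 to 1.13) at A_72_P223782, with exact permutation p values of 0.4 and 0.7. The dimmer probe had differences of -0.032 without LDM replicate 3 and of -0.053 without PMM replicate 1. The brighter probe exceeded the dimmer one by 4.54 to 5.07 log2 units on the 6 arrays, so the pair moved together from array to array.

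PRKAG2 encodes gamma-2, which is best known from the heart. Its probe was the dimmest of the 7, with 104 to 164 intensity units. The values were -2.58, -2.66 and -2.01 in LDM and -2.51, -2.59 and -2.24 in PMM, so that all PMM values lay within the LDM range. The difference of -0.031 (SE 0.31, 95% interval -0.75 to 0.69) had an exact permutation p of 0.9 and was the smallest of the 7. It took the other sign in several settings, with 0.17 when LDM replicate 3 was left out, 0.039 when PMM replicate 2 was and 0.00099 when PMM replicate 1 was.

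**Figure D2:**
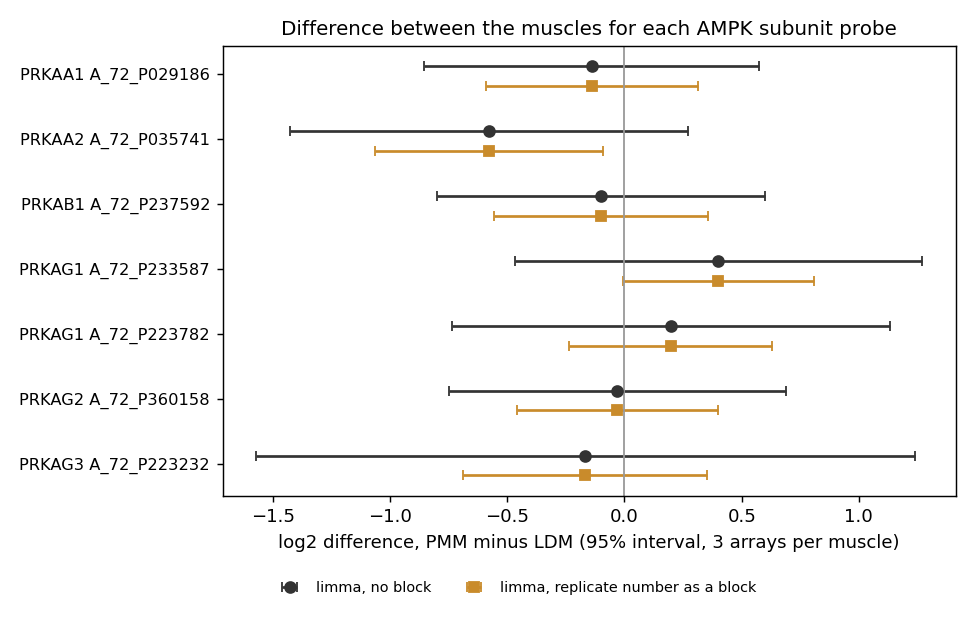
The log2 difference between the muscles (PMM minus LDM) is shown for each AMPK subunit probe with its 95% interval from limma, without a block (black circles) and with the replicate number as a block (orange squares), with 3 arrays per muscle. Every interval without a block includes 0, and with the block only that of PRKAA2, from -1.07 to -0.090, does not.

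Arrays of the same replicate number resembled each other across the muscles, and the block on replicate number narrowed the intervals. With it, the limma p of PRKAA2 was 0.0279 before adjustment and 0.380 after it, and the brighter PRKAG1 probe had 0.0533 and 0.459. As many as 11.1% of all probes had an unadjusted p under 0.05 in that fit and 17 (0.0658%) were called, and again 0 of the 7 subunit probes were among them. When the fit with the replicate block was restricted to the 2852 named genes with a tested probe, 188 genes (6.59%) were called, and 0 of the 6 subunit genes. Without the block 0 named genes (0.00%) were called, and 109 (3.82%) had an unadjusted p under 0.05. With the slide as a block 529 probes (2.05%) and 0 subunit probes were called, but the replicate 1 arrays each had a slide to themselves, so that this fit compared only replicates 2 and 3. The lowest adjusted p of PRKAA2 over all the settings tried was 0.112.

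The replicate number held more of the variation of the AMPK probes than the muscle did, as raw shares of the sum of squares. The replicate number has more levels than the muscle, so its share tends to be larger even without an effect. For PRKAG3 it held 95.2% of the sum of squares over the 6 arrays, against 1.06% for the muscle. The replicate shares were 92.5% and 78.0% for the PRKAG1 probes, 89.8% for PRKAG2, 73.7% for PRKAA1 and 70.3% for PRKAB1. PRKAA2 had the lowest share for the replicate number, 54.1%, and the highest for the muscle, 38.1%. Across all probes with 6 values the medians were 74.2% and 6.54%, so the replicate number held most of the variation across the array as a whole.

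Replicate 1 was the highest array in both muscles for 5 of the 7 probes. For PRKAA1, PRKAA2, both PRKAG1 probes and PRKAG3 its value exceeded those of replicates 2 and 3 in LDM and in PMM, a pattern found in 29.2% of the tested probes with 6 values. It was not always the array farthest from the others, as replicate 3 was for PRKAA2 in PMM and for the brighter PRKAG1 probe in both muscles. The PRKAG3 signal of replicate 1 was 3.36 times that of the other arrays in LDM and 2.79 times in PMM, on the scale of mean log2 values. For PRKAA2 the corresponding values were 1.61 and 1.501 times. Marker genes of other cell types also differed on these arrays. The summed signal of 7 adipocyte markers (of 8 listed, 6 of them detected on every array and none at 0) was 7.23 in LDM replicate 1 against 8.69 and 8.99, and 7.49 in PMM replicate 1 against 8.77 and 8.86, as log2 relative to the 75th percentile. The summed signals of 5 of 5 endothelial, 2 of 6 blood and 4 of 5 fibroblast markers were also lowest on the replicate 1 array in each muscle. They ranged from 5.73 to 7.34, from 1.76 to 3.83 and from 6.61 to 7.78 in LDM, and from 6.50 to 7.28, from 2.09 to 3.69 and from 6.15 to 7.24 in PMM. Such a sum is led by its brightest probes, DCN (decorin) in the fibroblast list, and not every marker followed it. COL3A1 (type III collagen) was higher in LDM replicate 1, at 1.99, than in the other LDM arrays, at 1.84 and 1.42. LPL (lipoprotein lipase), on the adipocyte list, was higher in PMM replicate 1, at 4.36, than in the other PMM arrays, at 3.64 and 3.71. The summed signal of the 14 muscle fibre markers was highest on replicate 1, at 13.3 in LDM and 13.5 in PMM, and 12.56 to 13.02 on the other arrays. The part of these cell types, and of the scan day that coincides with the replicate number, in the PRKAG3 and PRKAA2 values was not tested.

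Subunit isoforms were also compared with each other within each array, because the scaling of the array then cancels and the same pair of probes is read in both muscles. Of 7 pairs of genes chosen for this, 5 had both probes. The catalytic pair was the only one in which the muscles did not overlap. PRKAA2 exceeded PRKAA1 by 7.77, 7.52 and 7.35 log2 units in LDM and by 7.19, 7.24 and 6.90 in PMM. Every LDM array lay above every PMM array, and the pairs of replicate numbers differed by -0.58, -0.28 and -0.45. The ratio of the PRKAA2 signal to the PRKAA1 signal was 1.36 times as high in LDM, with a difference of -0.44 (PMM minus LDM; means 7.55 ± 0.21 and 7.11 ± 0.18, SD, n = 3 each). The exact permutation p was 0.1, the smallest that 3 against 3 arrays allow, and 0.5 after adjustment over the 5 pairs. An adjusted p under 0.05 was therefore out of reach of this test. The exact sign-flip test over the 3 pairs of replicate numbers likewise gave the smallest p it allows, 0.25. The mean of the 3 pairs had a 95% interval from -0.81 to -0.064, without adjustment over the 5 gene pairs. When each tested probe was set against the PRKAA1 probe in the same way, 7.67% showed no overlap between the muscles. Under the alternative settings the difference ranged from -0.64 to -0.33.

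**Figure D3:**
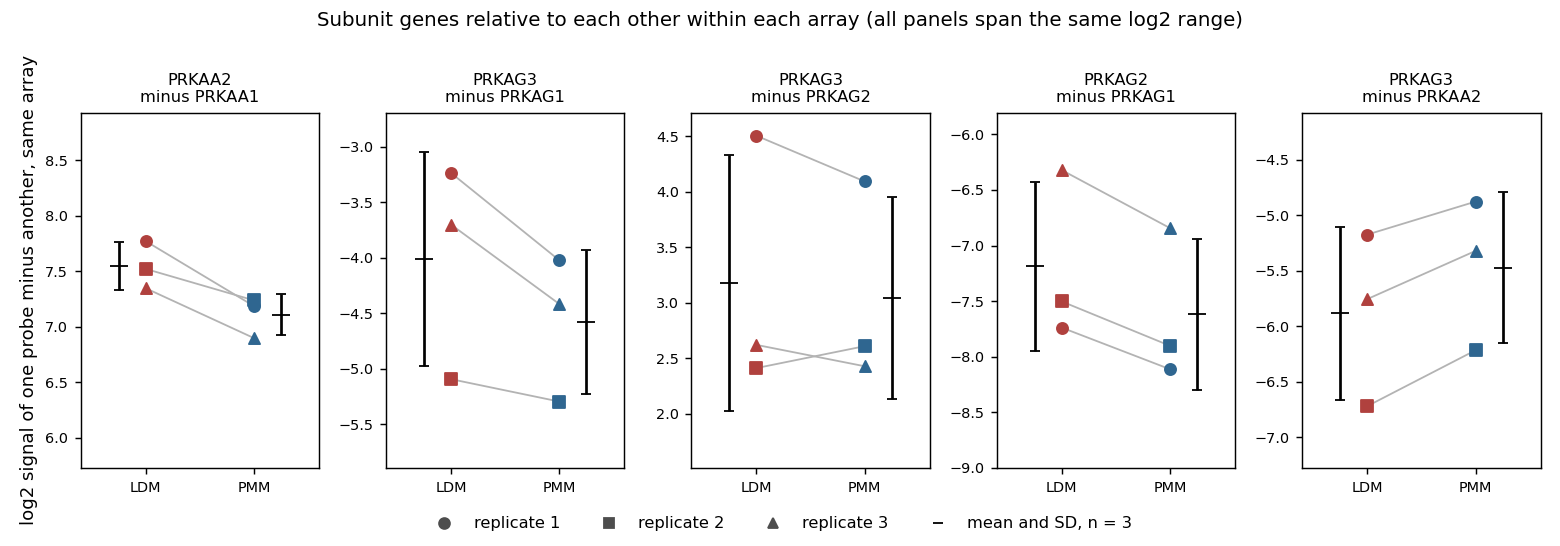
For 5 pairs of subunit genes, the log2 signal of one probe minus that of the other on the same array is plotted for LDM (red) and PMM (blue), with lines joining arrays of the same replicate number and black bars for the mean and SD of 3 arrays. Only for PRKAA2 minus PRKAA1 do the LDM points, from 7.35 to 7.77, lie wholly above the PMM points, from 6.90 to 7.24.

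Among the gamma subunits, PRKAG3 minus PRKAG1 was -3.24, -5.09 and -3.70 in LDM and -4.02, -5.29 and -4.42 in PMM. Each PMM value was below its LDM partner, but LDM replicate 2 was lower than 2 of the 3 PMM arrays. The difference of -0.57 had an exact permutation p of 0.4, and 0.75 after adjustment, and the mean of the pairs had a 95% interval from -1.36 to 0.22. Leaving out LDM replicate 1 gave -0.18, leaving out PMM replicate 2 gave -0.21 and leaving out LDM replicate 2 gave -1.11. PRKAG2 minus PRKAG1 was -7.74, -7.50 and -6.32 in LDM and -8.11, -7.90 and -6.84 in PMM. It was also lower in PMM in all 3 pairs, with a difference of -0.43 (exact permutation p = 0.5), which was 0.0013 without LDM replicate 3. The mean of the pairs had a 95% interval from -0.63 to -0.24, unadjusted, with an exact sign-flip p of 0.25. Both pairs hold the PRKAG1 probe that was higher in PMM in every pair, so they are not separate observations.

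PRKAG3 minus PRKAG2 was 4.50, 2.41 and 2.62 in LDM and 4.09, 2.61 and 2.43 in PMM. The muscles overlapped, and the difference of -0.14 had an exact permutation p of 0.8 and a 95% interval over the pairs from -0.90 to 0.63. It turned to 0.53 when LDM replicate 1 was left out, to 0.081 when PMM replicate 2 was and to 0.17 when PMM replicate 3 was. PRKAG3 minus PRKAA2, which sets the muscle gamma form against the muscle alpha form, was -5.17, -6.72 and -5.75 in LDM and -4.88, -6.22 and -5.32 in PMM. It was higher in PMM in 3 of 3 pairs of replicate numbers, with a difference of 0.41 and an exact permutation p of 0.6. The mean of the pairs had a 95% interval from 0.15 to 0.67, unadjusted, with an exact sign-flip p of 0.25. Without LDM replicate 2 the difference was -0.0067. This gene pair and PRKAA2 minus PRKAA1 both hold the PRKAA2 probe, which was lower in PMM in every pair of replicate numbers. They are therefore not separate observations.

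The genes that act upstream and downstream of AMPK were read from fixed lists of 87 genes. Of these, 32 had a named probe and 29 were tested. The list of upstream kinases holds the LKB1 complex and the calcium-dependent kinases that phosphorylate the alpha subunit. That list had a named probe for 0 of its 8 genes, and the list of AMPK-related kinases for 0 of 14. As 38509 of the 43603 probes had no name, this does not show that the array lacks probes for these genes. Of the 29 tested genes 0 were called with limma, 14 had a difference above 0 and 15 below it, and the median difference was -0.075 against -0.041 for all tested probes. In 3 genes (CPT1B, PPARGC1A and SIRT1) the muscles did not overlap, beside 5.94% of all tested probes with 6 values.

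The list of fat metabolism targets held both of the highest differences. CPT1B encodes the muscle form of the carnitine palmitoyltransferase that brings fatty acids into mitochondria, and its inhibitor malonyl-CoA is the product of an AMPK target. Its values were 3.99, 3.20 and 3.30 in LDM and 5.46, 4.004 and 4.46 in PMM, so that all PMM arrays lay above the LDM arrays. The difference of 1.15 (SE 0.44) was the only one of the 29 with an unadjusted p under 0.05 (limma, 0.0286), and its adjusted p was 0.99998. Without PMM replicate 1 the difference was 0.74. With the replicate number as a block the limma adjusted p of CPT1B was 0.196. This adjusted p was 0.0030 when that fit was restricted to named genes, the setting in which 6.59% of genes were called. ACACA encodes acetyl-CoA carboxylase alpha, which AMPK phosphorylates. Its values were -4.65, -4.26 and -4.71 in LDM and -0.66, -4.38 and -4.51 in PMM, with 5 of 6 arrays well above the background. PMM replicate 1 alone was high, and without it the difference of 1.36 (SE 0.91) was 0.096.

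Of the transcription and mitochondrial targets 9 were tested, 4 with a difference above 0 and 5 below. PPARGC1A encodes PGC-1alpha, the coactivator of mitochondrial genes that AMPK phosphorylates. Its values were 2.53, 2.08 and 1.79 in LDM and 3.79, 2.67 and 2.63 in PMM. All PMM arrays were above the LDM arrays, and the difference was 0.90 (SE 0.41), with an adjusted p of 0.99998 in limma. Without PMM replicate 1 it was 0.52. With the block and named genes only its adjusted p was 0.0127, which made it and CPT1B the 2 pathway genes called in that setting. SIRT1, a deacetylase of PGC-1alpha, had values of 2.50, 2.37 and 2.40 in LDM and 2.31, 2.32 and 2.04 in PMM, with a difference of -0.20 (SE 0.28). PPARA, the fatty acid receptor, had a difference of 0.32 (SE 0.38). FOXO1, a transcription factor active in fasting, had one of -0.27 (SE 0.34), which was -0.0031 without LDM replicate 3.

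The 7 tested glucose and glycogen targets had differences between -0.15 and 0.38, with a median of 0.015. GYS1, the muscle glycogen synthase, was at 0.38 (SE 0.48). HK2, the insulin-responsive hexokinase of muscle, was at 0.11 (SE 0.69). PFKFB4, which sets the level of the activator of phosphofructokinase, was at -0.15 (SE 0.45). TXNIP, an inhibitor of glucose uptake that AMPK marks for degradation, was at -0.10 (SE 0.44). HK2 resembled PRKAG3 in that replicate 1 was the highest array of each muscle, with -1.23, -3.34 and -2.99 in LDM and -1.12, -2.86 and -3.26 in PMM. The adiponectin receptor gene ADIPOR1, among the upstream modulators, was at -0.27 (SE 0.44), and the 2 tested growth and autophagy targets, BECN1 and RPS6KB1, were at -0.14 and -0.33.

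**Figure D4:**
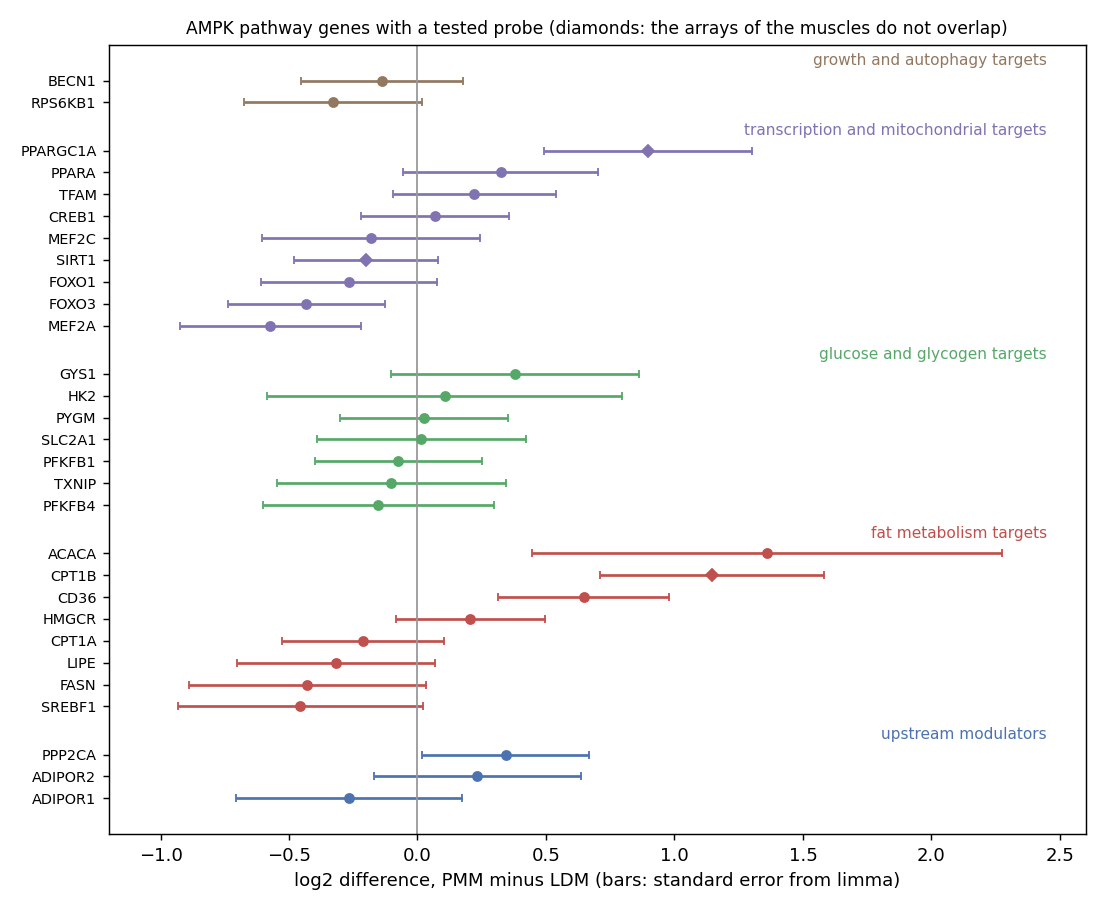
The log2 difference between the muscles (PMM minus LDM) is plotted for the 29 AMPK pathway genes with a tested probe, grouped and coloured by list, with bars for the standard error from limma and diamonds where the arrays of the muscles do not overlap. Most bars reach or cross 0, and CPT1B at 1.15 and PPARGC1A at 0.90 are the diamonds on the PMM side.

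The named genes that followed PRKAG3 and PRKAA2 most closely over the 6 arrays were found by Pearson's r, as a description without a test, among 2733 genes detected on every array. For PRKAG3 these were BIN1, SRF, COMP, AAR2 and RUSC1, with r from 0.981 to 0.996. BIN1 shapes the membrane tubules of muscle, and SRF is a transcription factor of muscle and cytoskeletal genes. BIN1 had values of 9.26, 8.03 and 8.53 in LDM and 9.11, 8.08 and 8.25 in PMM, with replicate 1 the highest and replicate 2 the lowest in both muscles, as in PRKAG3. Its differences between replicates were smaller than those of PRKAG3. Of the 2733 genes, 135 had an r above 0.9 with PRKAG3. The arrays share their replicate numbers, scan days and 2 of their slides, and the part of these in the likeness was not tested.

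For PRKAA2 the closest genes were PDK3, NOP9, IMP2, RSC1A1 and MDM2, with r from 0.985 to 0.997, and 136 genes had an r above 0.9. PDK3 encodes a kinase that inhibits pyruvate dehydrogenase. Its values were 3.02, 2.37 and 2.30 in LDM and 2.38, 2.10 and 1.53 in PMM, with a difference of -0.56 next to -0.58 for PRKAA2. As for PRKAA2, PMM replicate 3 was the lowest array and LDM replicate 1 the highest. None of the 10 genes was on an AMPK pathway list.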

How the data were processed

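RNA from 3 LDM and 3 PMM samples was labelled with Cy3 and hybridized to the Agilent pig oligo microarray. The authors deposited linear spot intensity values made with Agilent Feature Extraction 10.5.1.1, a program that removes local background and spatial trends within an array and leaves the arrays on their own scales. The series table held the same intensities. For the workflow of these arrays the study refers to an earlier report, and for differential expression to the MultiExperiment Viewer. It does not itself name a normalization or a test. It kept only probes with a unique match in exons, and checked some genes by q-PCR.

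From these intensities, control and outlier spots were left out, and log2 values of repeated spots were averaged. Then log2 of the 75th percentile of the array was subtracted, taken over all spots that were not controls, with outlier spots included. A probe was tested if the 3 arrays of at least 1 muscle all marked it as well above background, with at least 2 values per muscle. PMM and LDM were compared in R 4.3.3 with limma 3.58.1 (lmFit and eBayes, two-sided, Benjamini-Hochberg adjustment over 25835 probes, threshold 0.05), and single values by exact permutation of the 6 arrays. Isoform differences were also given over the 3 pairs of replicate numbers, by an exact sign-flip test and a 95% interval from Student's distribution. A gene with several probes was represented by its brightest tested probe. Probes were named by the files or through accessions and gene numbers in a RefSeq table of Sscrofa11.1, used for names only; 38509 of 43603 probes had no name. A planned match of probe sequences to proteins was not made. Numbers from the labels were taken to pair the arrays by a rule on the values: deviations from the muscle mean correlated at 0.62, 0.70 and 0.56 for replicates 1, 2 and 3 (threshold 0.1). The genes named were all subunit probes, 22 listed pathway genes where tested (10 were) or any called, the 5 genes most like PRKAG3 and PRKAA2, and FABP3, MB and TNNI1; BECN1, RPS6KB1, SIRT1, DCN, COL3A1 and LPL were added after their values were seen. The members and lists were chosen with earlier results of these data known. On simulated data with 200 of 25840 probes changed, limma called 100% of 16-fold and 64% of 4-fold changes with 13 unchanged probes called. With the block it called 100% of both, with 13 unchanged probes called. For the fit without the block the simulated noise held no replicate effect, unlike the data. Changes smaller than 4-fold were not simulated, so the simulation does not show how often differences of the size seen here would be called.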

Additional observations from a re-analysis of the deposited data

How the results depend on the processing

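Quantile normalization, median centring and the series table kept the direction of every subunit and isoform value, the mean over the probes of a gene kept that of the 5 isoform pairs, and 0 subunit probes were called under any alternative. The number of probes called, 8, was 0 with the 75th percentile over well detected probes, 0 without the detection filter, 0 with outlier spots kept, 1 with normexp background correction, 529 with the slide as a block (which leaves only replicates 2 and 3 in the comparison), 17 with the replicate block, 0 with that block and quantile normalization, 0 with named genes only and 188 with named genes and the block. With the block and without replicate 1, 2 or 3 it was 790, 1 and 0. The block with quantile normalization, on named genes and without a replicate number was chosen after seeing the data, as were the sign-flip test and the intervals over pairs. The number of pathway genes called, 0, was 1 with the replicate block without replicate 1 (CPT1B, 0.98) and 2 with the block on named genes (CPT1B, 1.15, and PPARGC1A, 0.90). PRKAG2 changed sign with the 75th percentile over well detected probes (0.0013), with normexp (0.19) and with the block without replicate 3 (0.071), as did PRKAB1 in the last (0.028). PRKAG3 minus PRKAG2 was 0.0024 with the slide as a block and, from the same arrays, with the replicate block without replicate 1. HK2 was -0.022 with normexp and -0.080 with the block without replicate 2, and TXNIP was 0.065 with the slide as a block, 0.065 with the replicate block without replicate 1 and 0.026 without replicate 3. When each array was left out in turn, the ranges were -0.29 to 0.037 for PRKAA1, -0.77 to -0.30 for PRKAA2, -0.26 to 0.079 for PRKAB1, 0.17 to 0.69 and -0.053 to 0.51 for the PRKAG1 probes, -0.15 to 0.17 for PRKAG2, -0.67 to 0.42 for PRKAG3, -0.54 to -0.33 for PRKAA2 minus PRKAA1, -1.11 to -0.18 for PRKAG3 minus PRKAG1, -0.66 to 0.53 for PRKAG3 minus PRKAG2, -0.82 to 0.0013 for PRKAG2 minus PRKAG1 and -0.0067 to 0.78 for PRKAG3 minus PRKAA2. For pathway genes they were -0.59 to 0.070 for ADIPOR1, 0.096 to 2.02 for ACACA, 0.74 to 1.47 for CPT1B, 0.52 to 1.099 for PPARGC1A, -0.45 to -0.0031 for FOXO1, -0.099 to 0.69 for GYS1, -0.54 to 0.75 for HK2, -0.57 to 0.18 for PFKFB4, -0.36 to 0.31 for TXNIP and -0.031 to 0.54 for PPARA, and the probes called ranged from 0 to 1. The causes were not tested.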
